A study of Mus musculus with 9 samples.

Results

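The genes of the cytoplasmic ribosomal proteins were followed across 3 groups of mouse embryonic stem cells, one with a hairpin against Phf5a, one with a hairpin against Paf1 and one with a control hairpin. Members were taken by symbol, as Rpl or Rps followed by a digit, Rpsa, or Rplp0, Rplp1 and Rplp2, leaving out the Rps6k kinases and symbols marked as pseudogenes. Each gene was read from a probe set annotated with that symbol alone, and where a gene had several, the set was chosen by the highest mean signal over the 9 arrays. This gave 69 genes of the 22180 tested. The mean signal is the one measured value the naming rule uses, and the family itself was proposed with results of these arrays known, so that its counts describe these arrays and are no independent evidence.

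All 3 groups were the Nanog-GFP reporter line NG4, a 129/Sv line grown with LIF, the cytokine that sustains self-renewal, on a gelatin coating. Each group received a pLKO.1 lentivirus carrying 1 hairpin (shPhf5a, shPaf1 or shControl), was selected with puromycin at 2 µg/mL for 72 h, and was measured on 3 Affymetrix arrays of total RNA, with no sort of cells named. By its title, the series asks how Phf5a bears on elongation by the polymerase in pluripotent cells. Phf5a is a subunit of the SF3b splicing complex, and Paf1 belongs to the PAF complex, an elongation complex that binds RNA polymerase II.

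A cytoplasmic ribosome holds a small subunit, which decodes the message, and a large subunit, which forms peptide bonds. Its proteins are needed in roughly equal numbers, and their genes are among the most strongly transcribed in growing cells. Their messages usually start with a run of pyrimidines, the terminal oligopyrimidine or TOP element, through which mTOR signalling and Larp1 control their translation. Processed pseudogenes of these genes are common in mammalian genomes, so that 1 probe set can read several near-identical copies.

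The 69 genes comprised 23 of 31 listed small-subunit genes, 35 of 46 listed large-subunit genes, 7 paralogues (Rpl3l, Rpl7l1, Rpl10l, Rpl22l1, Rpl39l, Rps4l and Rps27l) and 4 other symbols that the naming rule admits. Of these 4, Rps19bp1 encodes a protein that binds Rps19 and Rps23rg1 a retrogene product, and neither is a ribosomal protein, so that the label covers most but not all of the members. The remaining 2 are Rpl6l and Rpl32l. A further 12 listed genes (Rps2, Rps15a, Rps21, Rpl10, Rpl12, Rpl13a, Rpl23, Rpl24, Rpl31, Rpl35a, Rpl36 and Rpl36a) lay on probe sets that carry several symbols and were not analysed singly. No filter on low values was applied, and all 69 genes entered the test.

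Signals of the ribosomal protein genes were bright on every array. Their median signal over the 9 arrays was 10.13 on the log2 scale, against 6.70 for all genes tested, and 16 of them were among the 100 brightest genes. The brightest was Rps6, at 13.41, followed by Rpl41, Rpl21 and Rpl29 at 13.27, 13.21 and 13.13. The dimmest were Rpl32l at 4.85, Rpl22l1 at 5.85, Rpl3l at 5.98 and Rpl11 at 6.44. Brightness also depends on the probes of each set, so that these ranks are ranks of signal and not of RNA amount.

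The hairpins lowered their targets. Phf5a stood at 34.4%, 55.9% and 39.6% of the control mean in the shPhf5a arrays, and Paf1 at 37.7%, 38.9% and 38.0% in the shPaf1 arrays. Phf5a was also lower in the shPaf1 arrays, at 64.3%, 62.0% and 76.2% of the control mean (adjusted p = 0.0183), and Paf1 was lower in the shPhf5a arrays, at 76.5%, 95.7% and 81.8% (adjusted p = 0.0267). The medians of the 9 arrays lay between 6.22 and 6.31. Replicate arrays correlated at 0.994 to 0.998, and the shPhf5a arrays were the least alike. Of 9 pluripotency markers, 7 were lower in each knockdown and none was higher, with list means of 10.10 to 10.35 in shPhf5a, 10.07 to 10.11 in shPaf1 and 10.57 to 10.62 in shControl. Of 8 trophectoderm markers, 7 were higher in shPhf5a, and 5 were higher and 1 lower in shPaf1, with list means of 8.11 to 8.40 and 8.14 to 8.24 against 7.08 to 7.22 in shControl. Of 7 primitive endoderm markers, 3 were higher and 1 lower in shPhf5a and 4 were higher in shPaf1, with list means of 7.57 to 7.96 and 7.69 to 7.72 against 7.18 to 7.33. Fibroblast markers, of which 1 of 8 was higher in shPhf5a and 3 in shPaf1, had list means of 5.93 to 5.99, 6.15 to 6.24 and 5.90 to 5.93. Pdgfra was on both the fibroblast and the primitive endoderm list. It had the largest rise of the fibroblast list in each knockdown, 0.58 in shPhf5a and 0.96 in shPaf1. Markers were called at an adjusted p under 0.05 in limma, where 20.7% of all genes were lower and 16.7% higher in shPhf5a. In shPaf1 these shares were 17.8% and 18.0%. The part of these marker changes in the changes of ribosomal protein genes was not tested. In RNA of a whole culture, fewer cells of a type and less RNA per cell cannot be told apart.

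Knockdown of Phf5a lowered about as many ribosomal protein genes as it left uncalled and raised none past the threshold. Of the 69 genes, 36 were lower and 0 higher than in shControl at an adjusted p under 0.05 in limma. Over all genes tested, 20.7% were lower, 16.7% higher and 37.4% called in either direction, so that the share of lower members, 52.2%, exceeded that of the array as a whole. At an unadjusted p under 0.05, 42 were lower and 3 higher (Rpl11, Rpl22l1 and Rpl37). The median change was -0.22 on the log2 scale, against -0.03 over all genes, and 53 of 69 changes were below 0. All 3 shPhf5a arrays lay below all 3 control arrays for 43 genes and above them for 1, Rpl11, where 25.9% and 19.9% of all genes did so. By class, 14 of 23 small-subunit genes, 15 of 35 large-subunit genes, 5 of 7 paralogues and 2 of the 4 other symbols were lower. Only Rps4l fell by more than a factor of 2.

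**Figure D1:**
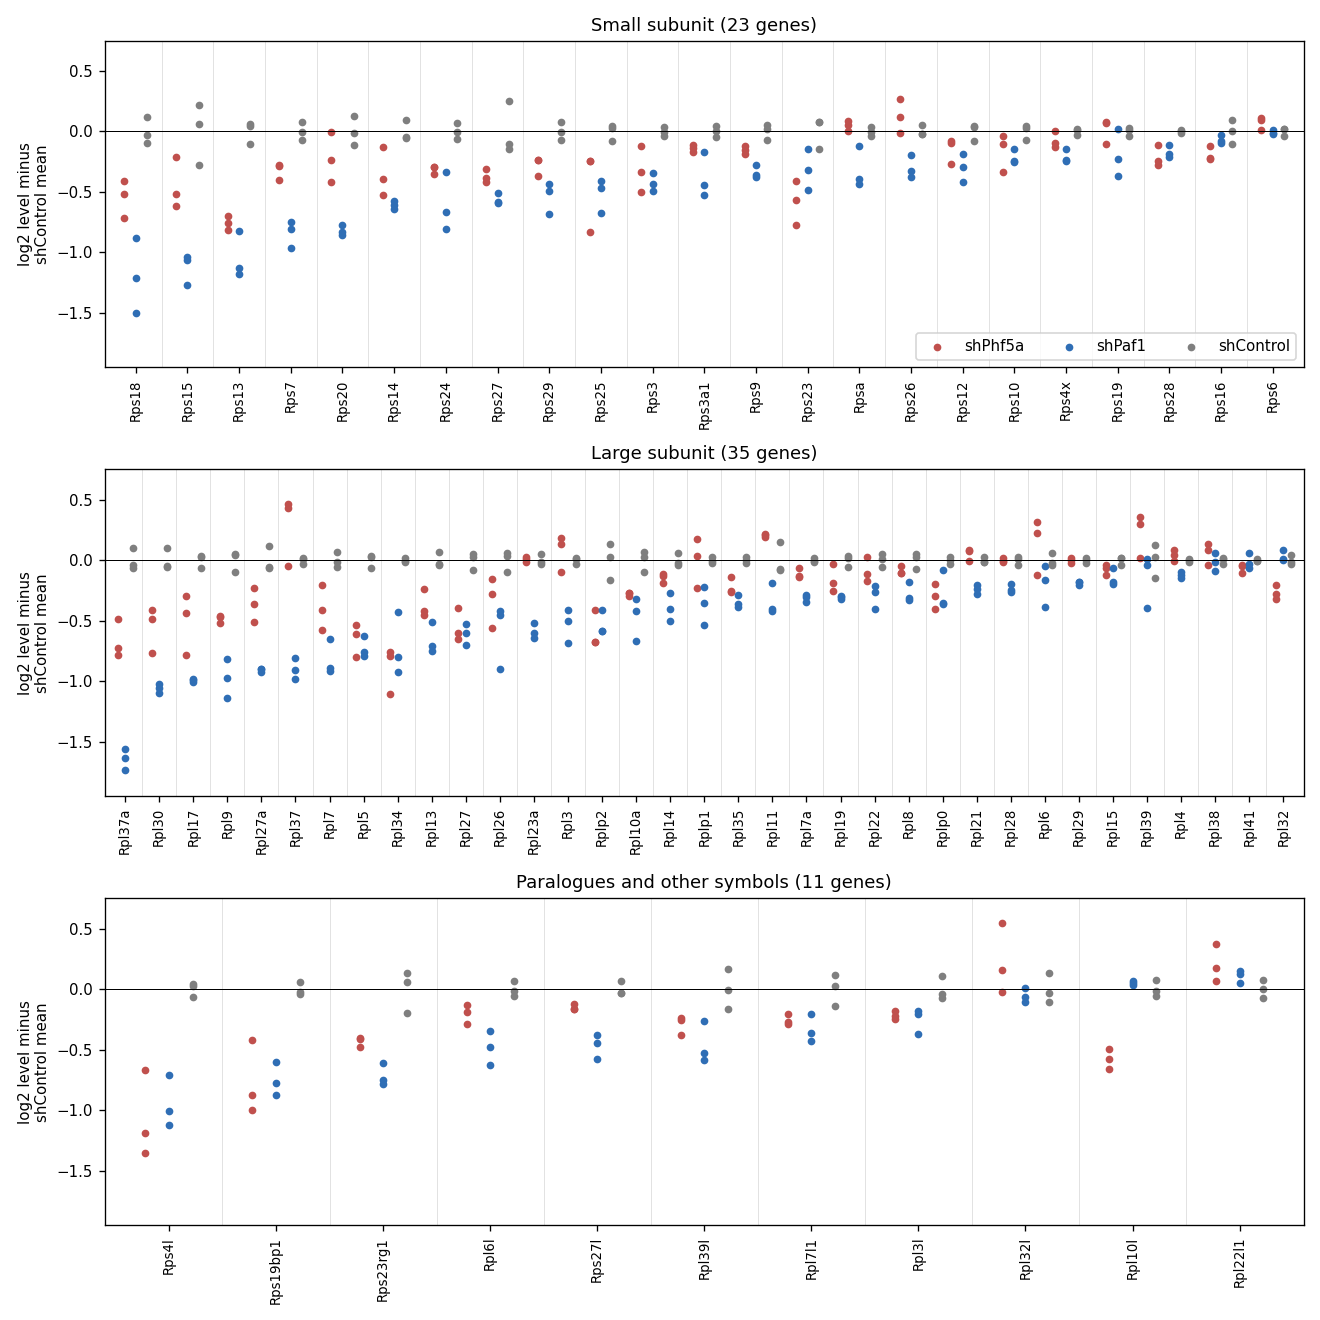
Log2 signal of each of the 69 genes minus its shControl mean (vertical axis, log2 units) in each array, with shPhf5a in red, shPaf1 in blue and shControl in grey; genes run from left to right by their change in shPaf1. Most blue points lie below the line at 0, red points lie between blue and grey for many genes, and Rpl37, Rpl10l and Rpl32 depart from that order.

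Among the genes lowest in shPhf5a was Rps4l, a copy of the X-linked small-subunit gene Rps4x. Its signals were 9.13, 9.82 and 9.30 in shPhf5a, 9.77, 9.36 and 9.48 in shPaf1, and 10.42, 10.53 and 10.51 in shControl. Every knockdown array lay below every control array, and the shPhf5a arrays were spread more widely than the others. Rps4l fell by 1.07 in shPhf5a (SE 0.16, adjusted p = 0.000601) and by 0.95 in shPaf1 (SE 0.16, adjusted p = 0.00118). Rps4x itself, measured at 12.76, 12.89 and 12.79 in shPhf5a, 12.74, 12.64 and 12.65 in shPaf1, and 12.90, 12.91 and 12.85 in shControl, changed by -0.07 in shPhf5a without passing the test and fell by 0.21 in shPaf1 (SE 0.05, adjusted p = 0.0102).

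Rpl34, a large-subunit gene, read 7.51, 7.86 and 7.83 in shPhf5a, 8.19, 7.82 and 7.69 in shPaf1, and 8.61, 8.64 and 8.61 in shControl. The control arrays were nearly identical and lay above all 6 knockdown arrays, which overlapped each other. It fell by 0.88 in shPhf5a (SE 0.13, adjusted p = 0.00043) and by 0.72 in shPaf1 (SE 0.13, adjusted p = 0.00143). Rps13, a gene of the small subunit, gave 6.60, 6.49 and 6.55 in shPhf5a, 6.48, 6.13 and 6.18 in shPaf1, and 7.20, 7.36 and 7.35 in shControl. Both knockdowns lay below the controls, by 0.76 in shPhf5a (SE 0.09, adjusted p = 0.000153) and by 1.04 in shPaf1 (SE 0.09, adjusted p = 1.85e-05). The gene of the Rps19-binding protein, Rps19bp1, which is no ribosomal protein, stood at 9.55, 10.13 and 9.67 in shPhf5a, 9.95, 9.77 and 9.67 in shPaf1, and 10.61, 10.53 and 10.51 in shControl. It fell by 0.77 and 0.75 in the 2 knockdowns (SE 0.13 each, adjusted p = 0.00127 in shPhf5a and 0.00142 in shPaf1).

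Rpl5 and Rpl11 encode partners that join the 5S rRNA in 1 particle and, outside the ribosome, bind Mdm2, the regulator of p53. Each had 1 probe set with its symbol alone, with mean signals of 7.58 for Rpl5 and 6.44 for Rpl11. The median over all genes was 6.70, and signal over background could not be assessed. These 2 probe sets differed in their changes. Rpl5 read 7.23, 7.50 and 7.43 in shPhf5a, 7.41, 7.28 and 7.24 in shPaf1, and 8.06, 7.97 and 8.07 in shControl, so that all knockdown arrays lay below all control arrays. It fell by 0.65 in shPhf5a (SE 0.08, adjusted p = 0.000139) and by 0.73 in shPaf1 (SE 0.08, adjusted p = 5.8e-05). Rpl11 read 6.68, 6.70 and 6.70 in shPhf5a, 6.08, 6.07 and 6.30 in shPaf1, and 6.41, 6.64 and 6.42 in shControl, with shPhf5a above and shPaf1 below all controls. Its change of 0.21 in shPhf5a did not pass the test (SE 0.08, adjusted p = 0.0669), and it fell by 0.34 in shPaf1 (SE 0.08, adjusted p = 0.00728). Without shControl replicate 2 or without shPaf1 replicate 3, Rpl11 was called higher in shPhf5a. Rpl11 was 0.54 higher in shPhf5a than in shPaf1 (SE 0.08, adjusted p = 0.000663).

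Knockdown of Paf1 lowered most of the family. Of the 69 genes, 55 were lower and 0 higher than in shControl, and over all genes 17.8% were lower, 18.0% higher and 35.8% called in either direction. The members' share was 79.7%. At an unadjusted p under 0.05, 58 were lower and 0 higher. The median change was -0.38, against -0.01 over all genes, and 66 of 69 changes were below 0. All 3 shPaf1 arrays lay below all 3 control arrays for 58 genes and above them for 0, where 25.0% and 23.2% of all genes did so. By class, 18 of 23 small-subunit genes, 29 of 35 large-subunit genes, 5 of 7 paralogues and 3 of the 4 other symbols were lower. The falls of 5 genes (Rpl37a, Rps18, Rps15, Rpl30 and Rps13) exceeded a factor of 2. Read array by array, the median of the 69 differences from the control mean was -0.27, -0.14 and -0.24 in shPhf5a, -0.29, -0.48 and -0.41 in shPaf1, and -0.01, 0.03 and -0.03 in shControl.

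The largest fall was that of Rpl37a, a small zinc-binding protein of the large subunit. It stood at 8.42, 8.72 and 8.48 in shPhf5a, 7.57, 7.65 and 7.47 in shPaf1, and 9.31, 9.17 and 9.14 in shControl, and the 3 groups did not overlap. In shPaf1 it kept 32.0% of its control level, a change of -1.64 (SE 0.09, adjusted p = 1.4e-06). In shPhf5a it fell by 0.67 (SE 0.09, adjusted p = 0.000226).

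Rps18 and Rps15, both of the head of the small subunit, came next. Rps18 read 9.17, 9.47 and 9.37 in shPhf5a, 9.004, 8.67 and 8.38 in shPaf1, and 9.79, 10.002 and 9.85 in shControl, again in 3 separate ranges. It fell by 0.55 in shPhf5a (SE 0.14, adjusted p = 0.0125, and 0.0653 at most under the alternatives, where it was lost without shControl replicate 2 and with probe sets averaged) and by 1.20 in shPaf1 (SE 0.14, adjusted p = 0.000125). Rps15 read 7.63, 8.04 and 7.73 in shPhf5a, 7.19, 7.21 and 6.97 in shPaf1, and 8.31, 8.46 and 7.97 in shControl. Its shPaf1 arrays lay below all others, while shPhf5a replicate 2 exceeded the lowest control array. Against control it fell by 1.12 in shPaf1 (SE 0.14, adjusted p = 0.000152), and in shPhf5a by 0.45 (SE 0.14, adjusted p = 0.0277). The second call did not hold under 5 of 17 alternative settings, among them those without shControl replicate 1 or 2 and without shPhf5a replicate 1 or 3.

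Rpl30 and Rpl17, the second of which lines the exit tunnel of the large subunit, had dim signals and clear falls. Rpl30 gave 6.48, 6.84 and 6.76 in shPhf5a, 6.15, 6.19 and 6.23 in shPaf1, and 7.19, 7.35 and 7.20 in shControl, and fell by 1.06 in shPaf1 (SE 0.09, adjusted p = 1.52e-05) and, in shPhf5a, by 0.55 (SE 0.09, adjusted p = 0.000821). Rpl17 gave 6.96, 7.31 and 7.45 in shPhf5a, 6.76, 6.76 and 6.74 in shPaf1, and 7.78, 7.79 and 7.68 in shControl, and fell by 0.99 in shPaf1 (SE 0.10, adjusted p = 5.85e-05) and, in shPhf5a, by 0.51 (SE 0.10, adjusted p = 0.00349). For both genes the 3 groups formed separate ranges, with shPaf1 lowest.

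The 2 brightest genes gave values close to control, at signals near the highest deposited value of 13.69. How the arrays respond to a change in RNA at such signals was not tested. Rps6, whose protein is the substrate that names the S6 kinases, read 13.48, 13.40 and 13.50 in shPhf5a, 13.40, 13.37 and 13.37 in shPaf1, and 13.35, 13.40 and 13.41 in shControl. Its change was 0.07 in shPhf5a (95% interval -0.03 to 0.18) and -0.01 in shPaf1 (-0.11 to 0.10), and neither passed the test. Rpl41, which encodes a peptide of the large subunit so short that it is almost all helix, read 13.26, 13.19 and 13.26 in shPhf5a, 13.36, 13.24 and 13.27 in shPaf1, and 13.30, 13.31 and 13.30 in shControl. It changed by -0.06 (-0.17 to 0.04) and by -0.01 (-0.12 to 0.10), and was called lower in shPhf5a after quantile normalization and in both knockdowns when its 5 probe sets were averaged. The next in brightness, Rpl21 and Rpl29, changed by 0.05 and 0.00 in shPhf5a without passing the test and fell by 0.24 (SE 0.05, adjusted p = 0.00243) and 0.19 (SE 0.04, adjusted p = 0.00491) in shPaf1. With probe sets averaged, both were called lower in shPhf5a, by 0.15 and 0.38 (adjusted p = 0.0297 and 0.00154). The fall of Rpl29 in shPaf1 was not called after quantile normalization.

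**Figure D2:**
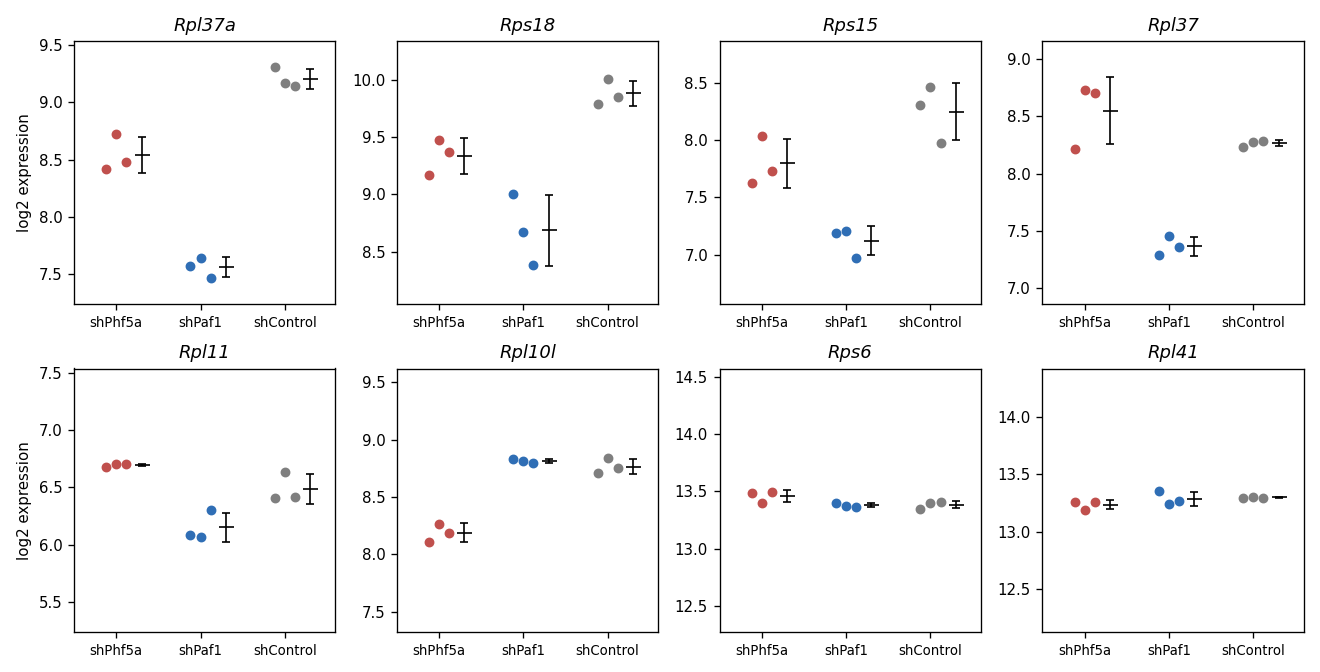
Log2 signal (vertical axis, each panel spanning its own range) of 8 genes in the 3 shPhf5a, 3 shPaf1 and 3 shControl arrays; points are arrays, and the bars are the mean and SD of each group. Rpl37a, Rps18 and Rps15 stand lowest in shPaf1, Rpl37 and Rpl11 have their highest means in shPhf5a, Rpl10l is lower in shPhf5a alone, and Rps6 and Rpl41 lie within narrow ranges.

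Promoters of the 3 genes with the largest falls in shPaf1 and of the 3 with changes nearest 0 there are shown because the series concerns transcription and these genes share a known start-site element. Rpl38, of the large subunit, was chosen after its values were seen. The stretches run from 80 bases before the annotated start to 20 bases from it, in build GRCm38.p6, at chr1:72711180-72711279 on the plus strand for Rpl37a, chr17:33955646-33955745 on the minus strand for Rps18, chr10:80292351-80292450 on the plus strand for Rps15, chr4:86857348-86857447 on the minus strand for Rps6, chr10:128549149-128549248 on the minus strand for Rpl41, and chr11:114668500-114668599 on the plus strand for Rpl38. Capitals mark a run of 5 or more C or T that begins with a C at the annotated start.
Rpl37a: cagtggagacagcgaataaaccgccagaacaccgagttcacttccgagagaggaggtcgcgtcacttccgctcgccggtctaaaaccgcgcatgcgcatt
Rps18: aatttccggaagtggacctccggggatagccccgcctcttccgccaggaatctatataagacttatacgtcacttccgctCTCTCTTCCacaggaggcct
Rps15: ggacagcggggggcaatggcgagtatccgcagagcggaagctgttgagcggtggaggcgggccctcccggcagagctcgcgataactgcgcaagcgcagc
Rps6: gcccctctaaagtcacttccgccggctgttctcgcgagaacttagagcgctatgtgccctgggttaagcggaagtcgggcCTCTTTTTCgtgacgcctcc
Rpl41: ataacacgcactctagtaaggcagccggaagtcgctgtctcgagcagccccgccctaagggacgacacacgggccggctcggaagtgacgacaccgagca
Rpl38: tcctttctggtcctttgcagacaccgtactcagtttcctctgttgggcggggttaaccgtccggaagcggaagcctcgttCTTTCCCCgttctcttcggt
Both groups of 3 hold genes with and without the run. Rps18, Rps6 and Rpl38 have it, while Rpl37a, Rps15 and Rpl41 have no such run at the annotated start. On its brightest probe set Rps18 fell in both knockdowns, and Rps6 and Rpl38 had changes near 0 in shPaf1. Dimmer sets of Rps18 changed by 0.01 and 0.00 in shPhf5a.

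RefSeq windows of 250 bases before to 50 from the start were matched by symbol for 54 of the 69 genes, in 63 windows, and were set beside all 32851 windows of the table. The C at the start within a run of 5 or more C or T was present in 11 windows, 17.5%, against 2.51% of all windows. CCGGAAG, searched on both strands like the motifs that follow and known as a core of ETS-family binding, was in 23 windows, 36.5%, against 8.86%. CTTTCC, which can lie inside a pyrimidine run as it does in Rpl38, was in 41.3% against 26.6%, and AAGATGG, the YY1 core, in 11.1% against 6.34%. The TATA box core TATAAA was in 9.52% of the windows against 13.6%, and CACGTG, the E-box, in 9.52% against 7.15%. The 11 genes with the start-site run (Rpl14, Rpl15, Rpl28, Rpl32l, Rpl35, Rpl38, Rplp2, Rps6, Rps10, Rps18 and Rps27) had a median change of -0.15 in shPhf5a and -0.24 in shPaf1, and the 43 without it -0.26 and -0.34. Across the 69 genes the change also went with mean signal, with rank correlations of 0.37 in shPhf5a and 0.40 in shPaf1. Of the genes with the run, Rps6, Rpl28, Rpl15, Rpl35 and Rpl38 were bright, and Rpl32l, Rplp2 and Rps27 were dim. The part of signal in these medians was not tested. Annotated starts can lie some bases from the true ones, so that a run may be missed.

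Calls were counted by signal brightness as a description only, since mean signal over the 9 arrays also chose each gene's probe set and includes the knockdown arrays. Split into 3 ranges of 23 genes by mean signal, a split made after the values were seen, the brightest (11.93 to 13.41) held 5 lower genes in shPhf5a with a median change of -0.06. That is 21.7%, fewer than the 39.2% of 199 other genes of the same brightness. The middle range (8.29 to 11.92) held 16 lower genes, 69.6%, against 40.0% of 6119 others, and the dimmest (4.85 to 8.09) 15, 65.2%, against 13.8% of 13222 others. In shPaf1 the brightest range held 17 lower genes, 73.9%, with a median of -0.24, where 36.7% of the others were lower. The middle range held 21, 91.3%, against 35.2%, and the dimmest 17, 73.9%, against 11.3%.

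**Figure D3:**
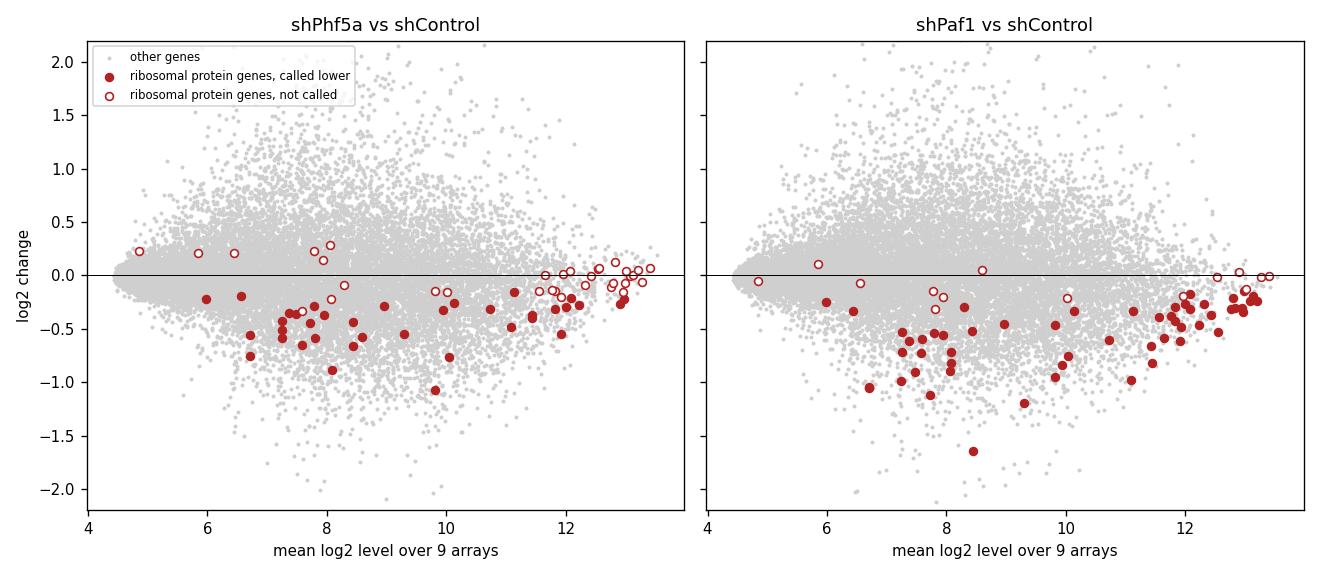
Log2 change against shControl (vertical axis) by mean log2 signal over the 9 arrays (horizontal axis), in shPhf5a at the left and in shPaf1 at the right; red points are the 69 genes, filled where called lower and open where not called, and grey points are the other genes, some of which lie beyond the axis. At the bright end many red points are open in shPhf5a and most are filled, just below 0, in shPaf1.

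Further probe sets of the same genes gave a second reading. Of the 69 genes, 25 had several probe sets with their symbol alone, and the dimmest of these changed more negatively than the brightest in 17 genes in shPhf5a and in 18 in shPaf1. Medians of the dimmest and brightest sets were -0.27 and -0.15 in shPhf5a, and -0.62 and -0.34 in shPaf1. The 2 sets of Rpl23a were near-duplicates, at 0.0072 and 0.0075 in shPhf5a, and this gene counts among the 17 and the 18. Among the 21 genes with sets at least 2 log2 units apart, the dimmest changed more negatively in 14 in shPhf5a and 16 in shPaf1. Rpl41, whose brightest set was near 0 in both knockdowns, had a set with a mean signal of 8.02. That set changed by -0.90 in shPhf5a and by -0.57 in shPaf1, both past the test over the 23521 probe sets with 1 symbol. Rpl4, a large-subunit gene chosen after its values were seen, changed by 0.04 in shPhf5a and -0.12 in shPaf1 on its brightest set, neither past the test. Its dimmest set changed by -0.64 and -1.19, both past it. Rps18 was among the genes that did the opposite. Its dimmest set was at 0.00 and 0.04 in the knockdowns in which its brightest set fell by 0.55 and 1.20. A further Rps18 set, at a mean signal of 7.12, changed by 0.01 in shPhf5a, not past the test. In shPaf1 that set changed by -0.34, past the test. Counted over all 110 probe sets of the family, 55 were lower and 0 higher in shPhf5a, and 88 were lower and 0 higher in shPaf1. These sets are not all separate readings, since several of the 8 sets of Rps12 had near-identical changes of -0.32 in shPhf5a. A separate fit of all 33793 probe sets, with those of several symbols or none listed, gave 16.7% lower and 15.0% higher in shPhf5a. In shPaf1 it gave 15.9% and 14.4%. Those shares come from another test and a wider kind of probe set than the counts of the 110. Which transcripts or copies each probe set reads was not tested.

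**Figure D4:**
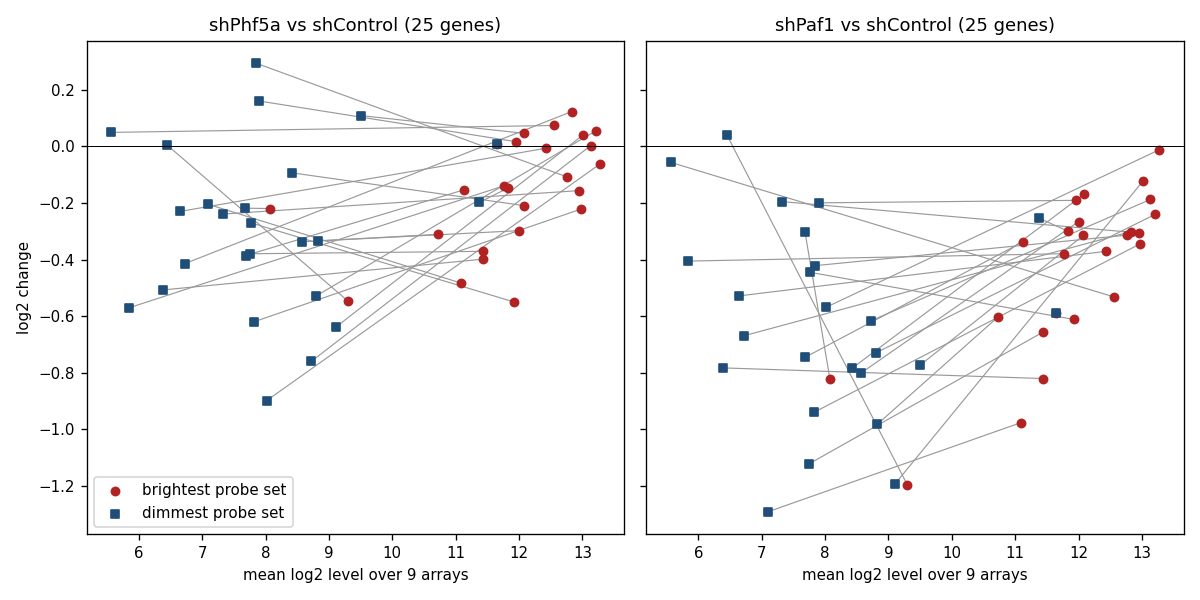
Log2 change against shControl (vertical axis) by mean log2 signal (horizontal axis) for the brightest (red circles) and dimmest (blue squares) probe set of each of 25 genes, joined by a line, in shPhf5a at the left and shPaf1 at the right. Most lines slope down towards the dim end, and the others slope the other way, among them that of Rps18.

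The stalk of the large subunit, which recruits the translation factors, is made of Rplp0, Rplp1 and Rplp2. Rplp0 read 11.78, 11.99 and 11.89 in shPhf5a, 12.11, 11.83 and 11.83 in shPaf1, and 12.19, 12.21 and 12.16 in shControl, with every knockdown array below the controls. It fell by 0.30 in shPhf5a (SE 0.08, adjusted p = 0.0174) and by 0.27 in shPaf1 (SE 0.08, adjusted p = 0.0307), calls that were lost under 3 and 7 of the 17 alternative settings. In shPhf5a these were the settings without shControl replicate 1 or 2 and without shPhf5a replicate 1, with adjusted p up to 0.0598, and in shPaf1 they included those without any 1 control array and without shPaf1 replicate 2 or 3, with adjusted p up to 0.132. A dimmer probe set of Rplp0, at a mean signal of 8.57, changed by -0.34 in shPhf5a and by -0.80 in shPaf1. Both passed the limma test over the probe sets with 1 symbol (adjusted p = 0.0443 and 0.000418). Rplp1 read 12.33, 12.73 and 12.59 in shPhf5a, 12.33, 12.02 and 12.20 in shPaf1, and 12.54, 12.54 and 12.58 in shControl. It changed by -0.01 in shPhf5a without passing the test, with an interval of -0.24 to 0.23, and fell by 0.37 in shPaf1 (SE 0.10, adjusted p = 0.0186), a call lost without shControl replicate 2 or 3 and without shPaf1 replicate 2, with adjusted p up to 0.0772. Rplp2, on a dimmer probe set, read 6.95, 7.21 and 6.95 in shPhf5a, 7.04, 7.04 and 7.21 in shPaf1, and 7.65, 7.76 and 7.46 in shControl, and fell by 0.59 and 0.53 (SE 0.10 each, adjusted p = 0.000957 in shPhf5a and 0.00182 in shPaf1).

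Rpsa and Rps19 belong to the small subunit. Rpsa, a protein also known as the laminin receptor, read 12.25, 12.22 and 12.17 in shPhf5a, 12.05, 11.77 and 11.73 in shPaf1, and 12.16, 12.21 and 12.13 in shControl. It changed by 0.05 in shPhf5a without passing the test and fell by 0.31 in shPaf1 (SE 0.08, adjusted p = 0.0103). Rps19, the gene most often mutated in human Diamond-Blackfan anaemia, changed by 0.02 (95% interval -0.19 to 0.22) in shPhf5a and by -0.19 (-0.40 to 0.02) in shPaf1, and neither passed the test. Without shPaf1 replicate 1, or with its probe sets averaged, Rps19 was called lower in shPaf1.

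Paralogues were set beside the genes they resemble. Rpl10l, an autosomal copy of the X-linked Rpl10 known from testis, read 8.10, 8.27 and 8.19 in shPhf5a, 8.83, 8.81 and 8.80 in shPaf1, and 8.71, 8.84 and 8.75 in shControl. It fell by 0.58 in shPhf5a (SE 0.06, adjusted p = 4.84e-05), and its change of 0.05 in shPaf1 did not pass the test. The muscle-type Rpl3l fell by 0.22 in shPhf5a (SE 0.07, adjusted p = 0.029) and by 0.25 in shPaf1 (SE 0.07, adjusted p = 0.0152). The first call was lost under 4 settings, among them those without shControl replicate 2 and without shPhf5a replicate 2 or 3, and the second without shControl replicate 2 and without shPaf1 replicate 2. Its partner Rpl3, which reaches close to the peptidyl transferase centre, read 12.61, 12.89 and 12.84 in shPhf5a, 12.30, 12.20 and 12.02 in shPaf1, and 12.72, 12.71 and 12.68 in shControl. Rpl3 changed by 0.07 in shPhf5a without passing the test and fell by 0.53 in shPaf1 (SE 0.09, adjusted p = 0.000891).

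Rps27l, known as a p53 target, changed by -0.15 in shPhf5a without passing the test and fell by 0.47 in shPaf1 (SE 0.06, adjusted p = 0.000189). Rps27 fell by 0.37 in shPhf5a (SE 0.10, adjusted p = 0.0119) and by 0.56 in shPaf1 (SE 0.10, adjusted p = 0.00113). Rpl39l, the testis-enriched relative of Rpl39, fell by 0.29 in shPhf5a (adjusted p = 0.0489, lost under 10 of 17 settings, 7 of them with 1 array left out) and by 0.46 in shPaf1 (SE 0.10, adjusted p = 0.00543). Rpl39 changed by 0.23 and -0.14, and neither passed the test. Rpl22l1, which stands in for Rpl22 when that gene is lost in mice, changed by 0.21 and 0.11 without passing the test, and was called higher in shPhf5a under 4 settings. Rpl22 changed by -0.09 in shPhf5a without passing the test and fell by 0.29 in shPaf1 (SE 0.07, adjusted p = 0.00793). Rpl7l1 fell by 0.26 in shPhf5a (SE 0.08, adjusted p = 0.0259, lost under 6 settings, with p up to 0.163) and by 0.33 in shPaf1 (SE 0.08, adjusted p = 0.00716). Rpl32l, the dimmest of all, was called in neither knockdown, and was called higher in shPhf5a with array weights and without shPhf5a replicate 2.

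Set against each other, the knockdowns differed at nearly 1 in 2 of these genes, almost always with shPaf1 lower. In shPhf5a relative to shPaf1, 31 of 69 genes were higher and 2 lower. Over all genes, 12.7% were higher, 16.3% lower and 29.0% called in either direction, while the members' shares were 44.9% and 2.9%. The median difference was 0.21, against -0.02 over all genes. For 38 genes all shPhf5a arrays lay above all shPaf1 arrays and for 3 below, where 16.3% and 21.3% of all genes did so. Higher in shPhf5a were 9 of 23 small-subunit genes and 19 of 35 large-subunit genes.

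Rpl37, a large-subunit gene, differed most. It read 8.22, 8.73 and 8.70 in shPhf5a, 7.29, 7.45 and 7.36 in shPaf1, and 8.23, 8.28 and 8.29 in shControl, so that the first shPhf5a array lay at the control level and the other 2 above it. Rpl37 was 1.18 higher in shPhf5a than in shPaf1 (SE 0.12, adjusted p = 8.34e-05). Against control it fell by 0.90 in shPaf1 (SE 0.12, adjusted p = 0.000252), and its change of 0.28 in shPhf5a missed the threshold (SE 0.12, adjusted p = 0.0956). After quantile normalization, with array weights, with replicates as a block or without shPhf5a replicate 1 it was called higher in shPhf5a. Rpl37a, with a difference of 0.98 (SE 0.09, adjusted p = 3.47e-05), and Rps15, with 0.68 (SE 0.14, adjusted p = 0.00465), followed. Rps18 was higher by 0.65 (SE 0.14, adjusted p = 0.00677) and Rpl3 by 0.60 (SE 0.09, adjusted p = 0.000642). Rps20, of the small-subunit head, read 8.004, 8.19 and 8.42 in shPhf5a, 7.59, 7.57 and 7.65 in shPaf1, and 8.41, 8.55 and 8.31 in shControl. It was 0.60 higher in shPhf5a than in shPaf1 (SE 0.10, adjusted p = 0.00142). Its other probe set, with a mean signal of 7.68 against 8.08, differed by 0.08 and did not pass the test. That set changed by -0.30 in shPaf1 against control, where the brighter set changed by -0.82. Differences closer to the threshold were those of Rplp1, 0.36 (SE 0.10, adjusted p = 0.0255), and Rps13, 0.29 (SE 0.09, adjusted p = 0.0394), which were lost under 5 and 8 alternative settings.

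The 2 genes lower in shPhf5a than in shPaf1 were Rpl10l, by 0.63 (SE 0.06, adjusted p = 3.91e-05), and Rpl32. Rpl32, a large-subunit gene often used as a loading reference, read 12.71, 12.78 and 12.66 in shPhf5a, 13.07, 12.998 and 12.99 in shPaf1, and 13.03, 12.95 and 12.98 in shControl. It fell by 0.27 against control in shPhf5a (SE 0.05, adjusted p = 0.00198), its change of 0.03 in shPaf1 did not pass the test except after quantile normalization, and the difference between the knockdowns was -0.30 (SE 0.05, adjusted p = 0.00153). For 36 genes the difference was not called. Among these, Rpl5 differed by 0.08 (95% interval -0.09 to 0.25), Rps4l by -0.12 (-0.49 to 0.24) and Rplp0 by -0.03 (-0.22 to 0.15). The value of Rplp0 is that of its brightest probe set. Its dimmer set was 0.46 higher in shPhf5a than in shPaf1 (adjusted p = 0.0134 in limma over the probe sets with 1 symbol).

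Genes that work with the ribosome were read from lists chosen for their function. Their counts stand beside shares over all genes of 20.7% lower and 16.7% higher in shPhf5a, and 17.8% lower and 18.0% higher in shPaf1. Fau, which encodes a small-subunit protein under another name, fell by 0.22 in shPhf5a (SE 0.07, adjusted p = 0.0344) and by 0.31 in shPaf1 (SE 0.07, adjusted p = 0.0068). Of 15 measured genes whose messages, like those of ribosomal proteins, are known or thought to carry a TOP element, 3 were higher and 6 lower in shPhf5a with a median of -0.16, and 2 were higher and 11 lower in shPaf1 with a median of -0.34. Tpt1, a translationally controlled growth protein, fell by 1.82 in shPaf1 (SE 0.12, adjusted p = 4.71e-06) and was 1.82 higher in shPhf5a than in shPaf1 (SE 0.12, adjusted p = 9.1e-06). The elongation factor subunit Eef1d fell by 0.68 in shPhf5a (SE 0.10, adjusted p = 0.000588), while the initiation factor Eif4b was 0.46 higher there (SE 0.05, adjusted p = 6.97e-05). The helicase Eif4a1 and the Eif3 subunit Eif3e fell by 0.70 and 0.63 in shPaf1.

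Of 42 measured genes of ribosome assembly, 28 were lower and 2 higher in shPhf5a with a median of -0.38, and 20 were lower and 1 higher in shPaf1 with a median of -0.20. The shares over all genes were 20.7% lower and 16.7% higher in shPhf5a, and 17.8% and 18.0% in shPaf1. Nip7 and Rrp9, which take part in processing pre-rRNA, fell by 1.25 (SE 0.14, adjusted p = 9.18e-05) and 1.11 (SE 0.14, adjusted p = 0.000197) in shPhf5a. In shPaf1, Wdr12 of the PeBoW complex fell by 0.75 (SE 0.12, adjusted p = 0.000757) and Dkc1, the pseudouridine synthase, by 0.67 (SE 0.08, adjusted p = 8.86e-05). Relative to shPaf1, 15 of the 42 were lower and 5 higher in shPhf5a, with a median of -0.07, where 16.3% of all genes were lower and 12.7% higher. Bop1, another PeBoW member, was lower there by 0.86 (SE 0.09, adjusted p = 7.59e-05).

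Of 22 measured initiation factor genes, 15 were lower and 2 higher in shPhf5a with a median of -0.30, and 11 were lower and 1 higher in shPaf1 with a median of -0.22. Eif1ax fell by 0.91 in shPhf5a (SE 0.12, adjusted p = 0.000216) and by 0.58 in shPaf1 (SE 0.12, adjusted p = 0.00287), and Eif3i fell by 0.88 in shPhf5a (SE 0.08, adjusted p = 3.24e-05). Of 13 measured genes of mTOR signalling, 5 were higher and 0 lower in shPhf5a, and 7 were higher and 2 lower in shPaf1, with medians of 0.03 and 0.27. Beside both lists, 20.7% of all genes were lower and 16.7% higher in shPhf5a, and 17.8% and 18.0% in shPaf1. In shPaf1, Tsc1, an inhibitor of the pathway, was higher by 0.86 (SE 0.06, adjusted p = 4.26e-06), the kinase Mtor by 0.83 (SE 0.06, adjusted p = 4.74e-06) and Larp1, the TOP-binding protein, by 0.74 (SE 0.04, adjusted p = 2.53e-06). Larp1 was also higher in shPhf5a, by 0.37 (SE 0.04, adjusted p = 0.000141).

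The comparisons of each knockdown with shControl share the 3 control arrays, so that a control array with an unusual value shifts both. Calls that held under every alternative setting run for the gene (17, or 16 for genes below the median signal) numbered 21 of 36 in shPhf5a, 47 of 55 in shPaf1, and 18 of 31 higher and 2 of 2 lower in the direct comparison.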

How the data were processed

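RNA of 9 samples was hybridized to Affymetrix whole-transcript arrays from 125 ng of total RNA, per the labels' protocols. The authors deposited 1 log2 expression value per array for each of 33793 probe sets, with the log base inferred from the range of 4.35 to 13.7. The sources used here do not name the software, the normalization or the array's genome build, and fold changes rest on the inferred base. Groups and replicate numbers came from sample titles. No label says that replicates were separate cultures, so p-values reflect only the variation among these arrays, possibly technical, and each group has 1 hairpin.

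By the platform annotation, 23521 probe sets had 1 symbol, 1814 several and 8458 were unlisted. The 22180 genes were fitted in limma 3.58.1 (R 4.3.3) with a mean per group over all 9 arrays, moderated two-sided tests, Benjamini-Hochberg adjustment over all genes and a threshold of 0.05. The fit was tested on simulated data. Intervals are 95% intervals of the fitted change. Named were the measured ones of 24 genes of known role and the 6 largest called changes per direction and comparison. The 4 brightest and 4 dimmest members and up to 3 genes per further list and comparison were also named. The members and lists were chosen with earlier results of these data known. Each result was recomputed under 17 alternatives, 9 of which left out 1 array; genes below the median signal had 16, since 1 alternative leaves them out. Promoter stretches and names came from RefSeq tables of GRCm38.p6.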

Additional observations from a re-analysis of the deposited data

How the results depend on the processing

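The counts of lower genes kept within 1.5 times their value under all 17 alternatives: 30 to 41 in shPhf5a and 51 to 58 in shPaf1 with all arrays, and 25 to 36 and 49 to 57 with 1 array left out; in the direct comparison 27 to 39, and 22 to 33, were higher in shPhf5a and 2 to 3 lower. Genes called higher in shPhf5a numbered 2 after quantile normalization, 3 with array weights, 2 with the replicate block, and 0 to 2 with 1 array left out (2 without shPhf5a replicate 2, and 1 each without shPhf5a replicate 1, shControl replicate 2 and shPaf1 replicate 3). In shPaf1, 1 was called higher after quantile normalization. Averaging each gene's probe sets gave a median of -0.48 in shPaf1 and of 0.25 between the knockdowns, and turned the changes of Rpl21 and Rpl29 in shPhf5a to -0.15 and -0.38, both called lower. With 1 array left out, the median between the knockdowns ranged from 0.18 to 0.25, the highest without shPaf1 replicate 1. The cause was not tested, except that averaging brings in dimmer sets. With the replicate block, 31 genes were lower in shPhf5a and 52 in shPaf1, and 28 were higher and 2 lower in shPhf5a than in shPaf1. Same-numbered arrays of different groups deviated with correlations of -0.06 to 0.11 over 9 pairs and others with -0.18 to 0.10. With 3 arrays per group, these values cannot show whether same-numbered arrays shared a culture or a batch. The main fit left them unpaired. No scan date, slide or detection call was used, so that neither a batch nor signal over background could be assessed.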

Other observations

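Probe sets that carry the symbol of a ribosomal protein gene together with others were left out of the comparisons, because their signal cannot be given to 1 gene. There were 57 of them, and 20 of the 69 genes also occur on such sets. Among the 57, 27 were lower and 3 higher in shPhf5a than in shControl with a median change of -0.26, where 16.7% of all 33793 probe sets were lower and 15.0% higher. In shPaf1, 51 were lower and 2 higher with a median of -0.52, where 15.9% of all probe sets were lower and 14.4% higher. In shPhf5a relative to shPaf1, 32 were higher and 1 lower with a median of 0.37, where 11.7% were higher and 12.0% lower. These sets include the symbols of 12 subunit genes that had no probe set of their own.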
